A study of Mus musculus with 4 samples.

Results

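The Wnt pathway was read in mouse bone marrow hematopoietic stem cells (HSCs) as a set of 51 genes out of 23450 listed. The members are every gene named Wnt or Fzd followed by a number, 29 in all, and 22 named co-receptors, receptor ligases, transducers and nuclear factors. Transcripts were measured by RNA sequencing of 2 libraries of long-term HSCs (LT-HSC), sorted as CD48-, CD150+, CD34- and CD9high, and of ST-HSC (short-term HSCs), also 2 libraries, sorted as CD48-, CD150+ and CD9low, for which no CD34 gate is stated. Each library was made from the RNA of 2000 sorted cells. The sources used here give neither strain, age nor treatment, and no label ties the 2 libraries of a group to separate animals, so the p-values rest on the spread among these libraries alone, and that spread may be technical.

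Wnt proteins are secreted lipid-modified ligands. In the beta-catenin branch a ligand binds a Frizzled receptor and an LRP co-receptor, Dishevelled is recruited, and the destruction complex of Apc, Axin, casein kinase 1 and glycogen synthase kinase 3 stops marking beta-catenin for degradation, so that beta-catenin reaches the TCF/LEF factors on DNA. Other branches use the receptors Ror and Ryk and act on cell polarity and calcium. In the marrow, Wnt signals have been studied as regulators of stem cell self-renewal, and both too little and too much beta-catenin activity disturb blood formation in mice.

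Reads recovered from the deposited values numbered between 13063743 and 16143870 per library. A gene is called unread where no read was recovered, which by counting error alone allows up to 3 reads, or 0.186 to 0.229 CPM (counts scaled to a common library total). LT-HSC 1 stood apart in breadth, with a read for 62.0% of all listed genes, with 56.6% to 56.9% in the other 3. All 12 listed HSC marker genes were read in every library, with a summed level of 3260 and 3634 CPM in LT-HSC, against 2645 and 3094 CPM in ST-HSC. The list includes the gate genes. Cd48 had 2 and 2 reads in LT-HSC, against 247 and 575 in ST-HSC, although both groups were sorted as CD48-, and Cd34 stood at 134 and 201 CPM in LT-HSC, against 324 and 430 CPM in ST-HSC. Cd9 stood at 134 and 124 CPM in LT-HSC, against 100.3 and 113 CPM in ST-HSC.

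The pathway was present from the receptors to beta-catenin, but most of its ligands were not. Of the 51 members, 32 had a read in at least 1 library (62.7%, against 71.1% of all listed genes), 19 had a read in all 4 (37.3%, against 48.3%) and 19 were unread throughout. In LT-HSC 28 members had a read in at least 1 library, and in ST-HSC 28 as well. The filter for testing, at least 1 CPM in at least 2 libraries, was passed by 23 members, each of them with such a level in at least 1 library of both groups. The remaining 28 were not tested, and 9 of those had a read.

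**Figure D1:**
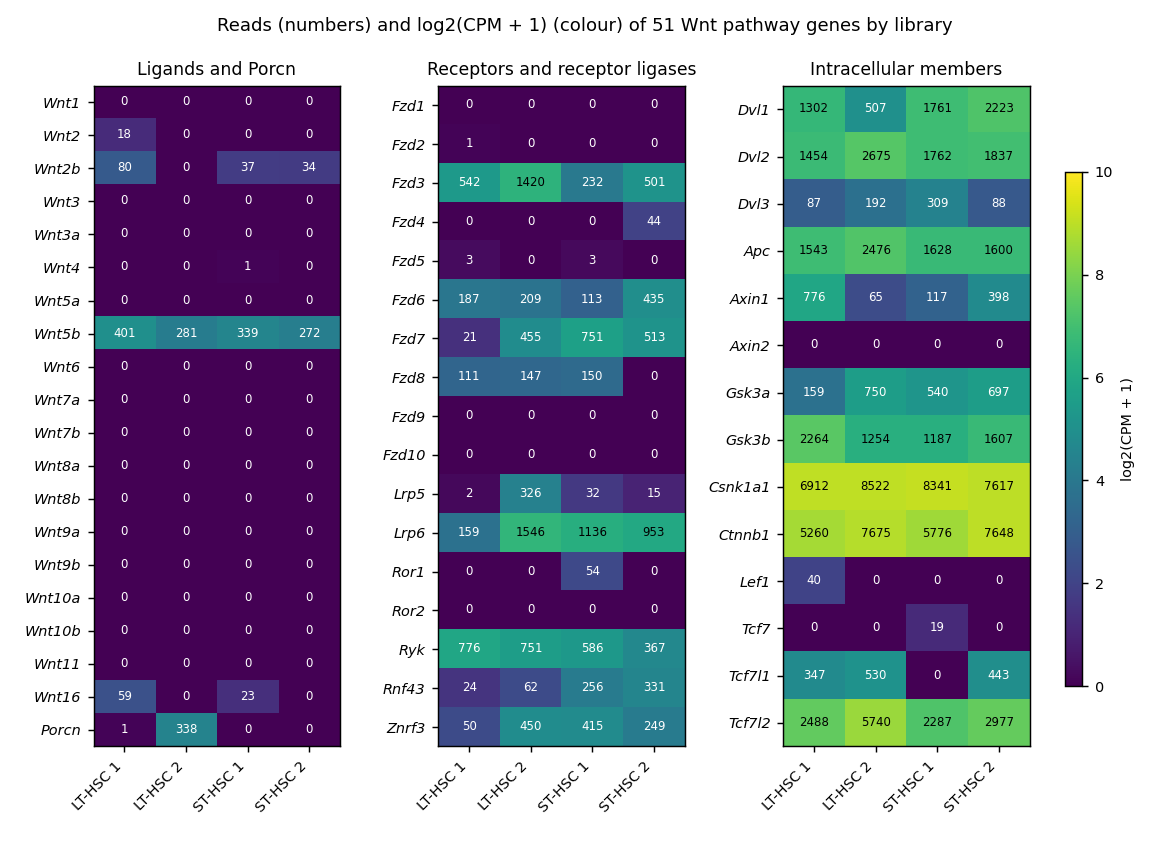
Recovered reads (numbers) and log2(CPM + 1) (colour) of the 51 Wnt pathway genes in each library, in 3 panels of ligands, receptors and intracellular members. The ligand panel is unread but for a few genes, with Wnt5b between 272 and 401 reads in the 4 libraries, while Csnk1a1 and Ctnnb1 have 5260 reads or more in each.

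The single comparison asks how the pathway's transcripts differ between CD9high, CD34- LT-HSC and CD9low ST-HSC. No member passed limma's test at an adjusted p under 0.05, and neither did any of the 12569 genes tested (0%). At an unadjusted p under 0.05, 0 members were higher and 0 lower in LT-HSC, where 2.87% of all tested genes were higher and 3.6% lower (814 genes by limma, 585 by limma-voom). Of the 23 tested members, 3 had both LT-HSC values above both ST-HSC values and 3 had them below, beside 16.1% and 17.5% of all tested genes, shares that the members' counts do not exceed. The median log2 fold change of the tested members (positive where LT-HSC is higher) was 0.16, against -0.01 for all tested genes, with 12 members positive and 11 negative. With 2 libraries against 2, an exact permutation test of a single value cannot give a two-sided p below 0.333. All fold changes below are therefore values, and a gene that missed the threshold is not shown to be equal between the groups.

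**Figure D2:**
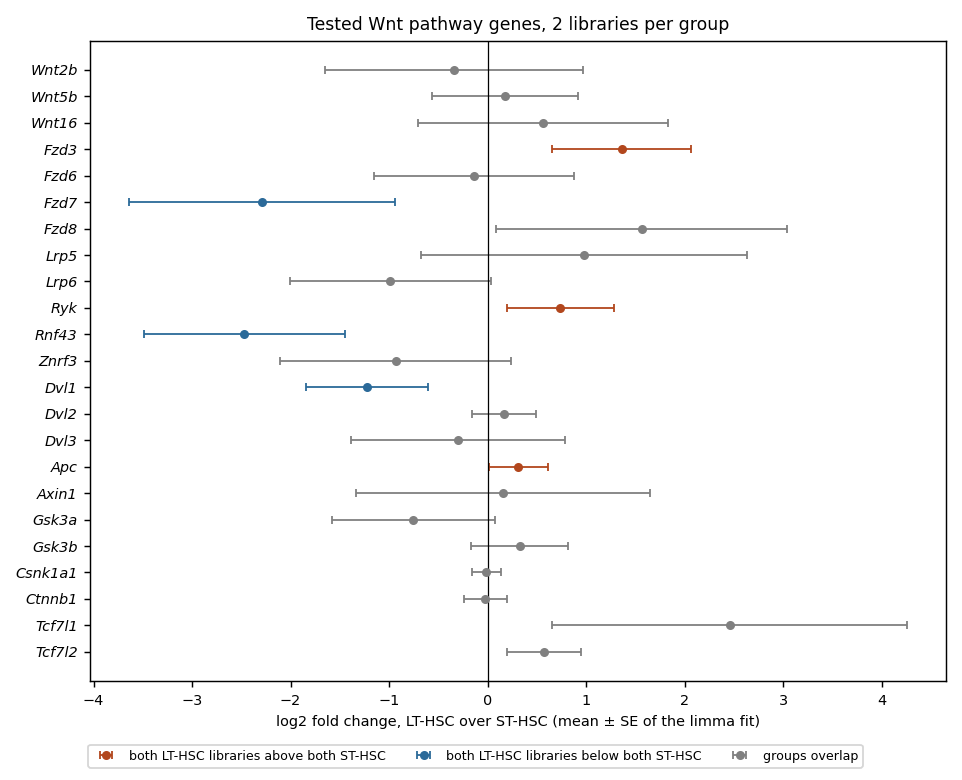
Log2 fold change of LT-HSC over ST-HSC for the 23 tested members, as the estimate ± SE of the limma fit on log2(CPM + 1), coloured by whether the libraries of the groups overlap. Estimates run from -2.47 (Rnf43) to 2.46 (Tcf7l1), and the bars of Csnk1a1 and Ctnnb1 are the shortest.

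Libraries of 1 group also differed: the median difference of the tested members was 0.90 log2 units within LT-HSC and 0.45 within ST-HSC. The median size of the fold change was 0.57. Over all tested genes these medians were 0.69, 0.56 and 0.47. The values within a group compare single libraries and the fold change compares means of 2, so they are not like measures. Between the libraries of LT-HSC, 11 of 23 tested members differed by more than 1 log2 unit (47.8%, against 38.2% of all tested genes), and between those of ST-HSC 7 did (30.4%, against 32.4%). Some members were read well in 1 library of a group and unread in its partner. Among members with at least 20 reads in a library of the group, this held for 3 of 25 in LT-HSC (Wnt2b, Wnt16 and Lef1; 12%, against 12.2% of all such genes) and for 5 of 25 in ST-HSC (Wnt16, Fzd4, Fzd8, Ror1 and Tcf7l1; 20%, against 9.65%). Both limits were chosen after the values were seen. In RNA from sorted pools, fewer cells with a transcript and less transcript per cell cannot be told apart.

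Of the 19 ligand genes, 5 had a read and only Wnt5b had one in every library. Wnt5b, whose product is known mainly for signalling outside the beta-catenin branch, had 401 and 281 reads in LT-HSC, against 339 and 272 in ST-HSC. Its mean level was 24.0 ± 9.38 CPM in LT-HSC, against 20.4 ± 2.97 CPM in ST-HSC (mean ± SD of 2 libraries), and the groups overlapped, with a log2 fold change of 0.18 ± 0.74 (SE, adjusted p = 0.9998).

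Wnt2b, the gene of a ligand of the beta-catenin branch, had 80 and 0 reads in LT-HSC, against 37 and 34 in ST-HSC, so that the LT-HSC libraries lay on either side of ST-HSC. Wnt16 had 59 and 0 reads in LT-HSC, against 23 and 0 in ST-HSC, and was thus read in the first library of each group only. Wnt2 had 18 reads in LT-HSC 1 and none elsewhere, and Wnt4 had 1 read, in ST-HSC 1. The other 14, namely Wnt1, Wnt3, Wnt3a, Wnt5a, Wnt6, Wnt7a, Wnt7b, Wnt8a, Wnt8b, Wnt9a, Wnt9b, Wnt10a, Wnt10b and Wnt11, were unread in all 4 libraries.

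Markers of endothelial and stromal cells were read beside the ligands. Of 10 endothelial and stromal marker genes, 8 and 4 had a read in LT-HSC 1 and 2, against 4 and 6 in ST-HSC 1 and 2, with a summed level of 229 and 103 CPM in LT-HSC, against 73.1 and 155 CPM in ST-HSC. Pecam1, which blood cells also express, made up 122 and 81.0 CPM of these sums in LT-HSC, against 59.6 and 124 CPM in ST-HSC. Col3a1, a fibroblast collagen gene, had 120 reads in LT-HSC 1 and none elsewhere. Col1a2 had 508 and 111 reads in LT-HSC, against 0 and 1 in ST-HSC, and Cxcl12 311 and 5, against 0 and 0. Kdr had 396 and 240 reads in LT-HSC, against 156 and 126 in ST-HSC. Higher in ST-HSC 2 were Pdgfrb, with 29 and 0 against 11 and 194 reads, and Cdh5, with 32 and 0 against 35 and 146. Lepr, a marker of perivascular stroma, was unread in every library, Pdgfra had 3 reads in LT-HSC 1 alone and Col1a1 2 reads in ST-HSC 2 alone. The part of such cells in the ligand reads was not tested. Porcn, which encodes the enzyme that acylates Wnt ligands for secretion, had 1 and 338 reads in LT-HSC and none in ST-HSC. Its level in LT-HSC rests on LT-HSC 2 alone, and it did not pass the filter for testing.

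Promoter windows are printed to show the DNA before genes that carry the account: Wnt5b, the ligand read in every library, Rnf43, the tested member with the most negative fold change, and Axin2, a textbook beta-catenin target that was unread. Each is the 250 bases before a RefSeq transcript start in GRCm38.p6, a later build than the mm9 of the reads, and capitals mark CTTTGA, a core sequence bound by TCF/LEF factors, or its reverse complement TCAAAG. The Wnt5b window lies on the minus strand at chr6:119449387-119449636, before the most downstream of 3 listed starts and so inside the gene. It is shown because it is the only 1 of the 3 with a match, and the windows of the other Wnt5b starts, the first included, hold 0. The Rnf43 window is at chr11:87662837-87663086 and the Axin2 window at chr11:108920099-108920348, both on the plus strand, before the first listed start of each gene.
Wnt5b: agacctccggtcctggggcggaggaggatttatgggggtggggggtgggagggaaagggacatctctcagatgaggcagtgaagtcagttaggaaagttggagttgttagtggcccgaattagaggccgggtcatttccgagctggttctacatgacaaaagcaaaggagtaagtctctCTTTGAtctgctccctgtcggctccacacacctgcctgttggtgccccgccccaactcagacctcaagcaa
Rnf43: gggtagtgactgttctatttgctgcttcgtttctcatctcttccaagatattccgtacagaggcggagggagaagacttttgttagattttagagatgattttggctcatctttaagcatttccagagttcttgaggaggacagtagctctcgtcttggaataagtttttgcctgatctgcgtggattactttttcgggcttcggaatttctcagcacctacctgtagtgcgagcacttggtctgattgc
Axin2: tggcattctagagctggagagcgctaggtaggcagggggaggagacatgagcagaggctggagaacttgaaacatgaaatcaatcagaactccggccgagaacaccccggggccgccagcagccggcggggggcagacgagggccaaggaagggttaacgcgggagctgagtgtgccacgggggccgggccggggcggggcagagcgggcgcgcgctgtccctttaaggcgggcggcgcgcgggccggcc
The printed Wnt5b window holds 1 match, and the Rnf43 and Axin2 windows hold 0, which says only that these letters are not in the windows. RefSeq windows were at hand for 36 of the 51 members, 46 windows in all, and 7 of them held a match on either strand (15.2%, against 13.8% of all 32851 windows of this length). Which start the cells use was not measured.

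Among the 10 Frizzled genes, which encode the seven-pass membrane receptors for Wnt ligands, 7 had a read and 4 were tested, and the groups did not overlap for Fzd3 and Fzd7, which were placed in opposite ways. Fzd3 had 542 and 1420 reads in LT-HSC, against 232 and 501 in ST-HSC. The groups did not overlap, with Fzd3 at 64.7 ± 32.8 CPM in LT-HSC, against 24.6 ± 12.97 CPM in ST-HSC (mean ± SD of 2 libraries), although LT-HSC 1 was close to ST-HSC 2. Its log2 fold change was 1.36 ± 0.70 (SE, adjusted p = 0.816), and 0.83 without LT-HSC 2.

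Fzd7, a receptor of the beta-catenin branch that is itself listed among Wnt targets, had 21 and 455 reads in LT-HSC, against 751 and 513 in ST-HSC. Both LT-HSC libraries lay below, LT-HSC 1 far below and LT-HSC 2 close to ST-HSC 2 (28.2 CPM in LT-HSC 2, against 34.6 CPM in ST-HSC 2). Its log2 fold change was -2.29 ± 1.35 (SE, adjusted p = 0.846), with a value of -0.55 without LT-HSC 1 and -4.03 without LT-HSC 2.

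Fzd6, which acts in planar polarity in mice, had 187 and 209 reads in LT-HSC, against 113 and 435 in ST-HSC, and the groups overlapped. Fzd8 had 111 and 147 reads in LT-HSC, against 150 and 0 in ST-HSC, so that its log2 fold change of 1.56 ± 1.48 (SE, adjusted p = 0.937) rests on ST-HSC 2, and the groups overlapped. Fzd4, the receptor for Norrin, had 44 reads in ST-HSC 2 and none elsewhere. Fzd5 had 3 and 0 reads in LT-HSC and 3 and 0 in ST-HSC, Fzd2 had 1 read in LT-HSC 1, and Fzd1, Fzd9 and Fzd10 were unread.

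Levels were compared between genes as CPM per kb of exon in the GENCODE M21 annotation, since longer transcripts give more reads. On that scale Fzd3 made up 39.0% and 39.2% of the summed Frizzled level in LT-HSC, against 7.74% and 15.2% in ST-HSC. Fzd7 made up 4.24% and 35.3% in LT-HSC, against 70.4% and 43.8% in ST-HSC, and was the highest Frizzled in both ST-HSC libraries. The sum itself was 8.35 and 17.6 CPM per kb in LT-HSC, against 15.6 and 17.4 CPM per kb in ST-HSC. Shares of 1 sum move against each other, so these are not separate observations.

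**Figure D3:**
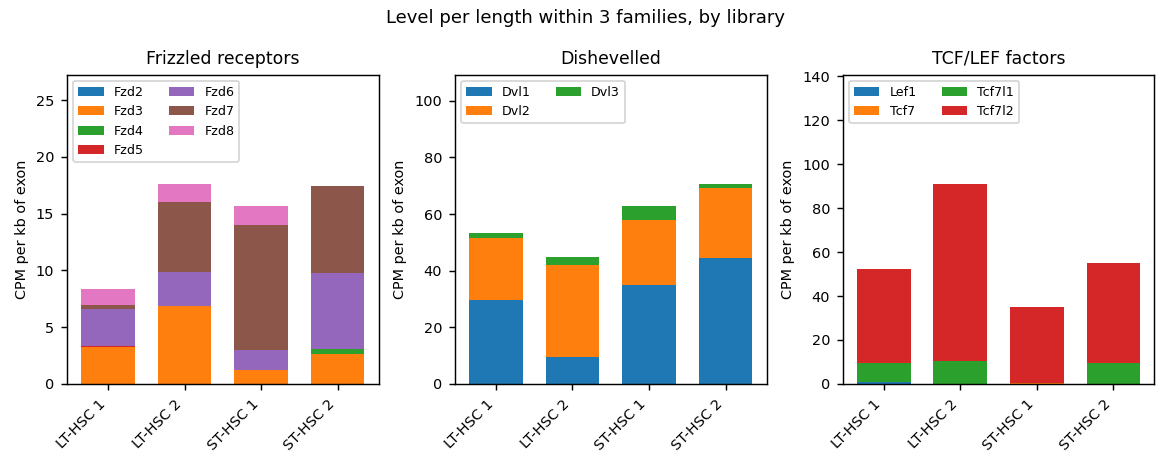
Level per length (CPM per kb of exon) of the Frizzled, Dishevelled and TCF/LEF genes in each library, stacked by gene, with bars starting at 0. Fzd7 takes the largest part of the Frizzled bar in both ST-HSC libraries, Dvl1 is smaller in LT-HSC 2 than in the other libraries, and Tcf7l2 makes up 81.9% or more of every TCF/LEF bar.

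Both LRP co-receptors differed more between the LT-HSC libraries than between the ST-HSC libraries. Lrp6, the co-receptor needed for most beta-catenin signalling in mouse development, had 159 and 1546 reads in LT-HSC, against 1136 and 953 in ST-HSC. Lrp5, its close relative, had 2 and 326 reads in LT-HSC, against 32 and 15 in ST-HSC. For both genes LT-HSC 1 was the lowest library and LT-HSC 2 the highest, so the groups overlapped. LT-HSC 1 stood apart for Lrp6 and LT-HSC 2 for Lrp5. The log2 fold change was -0.99 ± 1.02 (SE) for Lrp6 and 0.98 ± 1.66 (SE) for Lrp5 (adjusted p = 0.954 and 0.9998).

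Of the Ror and Ryk receptors, Ryk alone was read in every library. Ryk, a receptor with an inactive kinase domain, had 776 and 751 reads in LT-HSC, against 586 and 367 in ST-HSC. LT-HSC was the higher group without overlap, at 52.9 ± 9.09 CPM in LT-HSC, against 31.8 ± 10.1 CPM in ST-HSC (mean ± SD of 2 libraries). For Ryk the log2 fold change was 0.74 ± 0.54 (SE, adjusted p = 0.882), and 0.42 without ST-HSC 2. Ror1, a Wnt5a receptor, had 54 reads in ST-HSC 1 and none elsewhere, and its relative Ror2 was unread.

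The membrane ubiquitin ligases Rnf43 and Znrf3, which remove Frizzled from the cell surface and are induced by beta-catenin in a negative feedback, were both lower on average in LT-HSC, and Rnf43 had the smallest p of all members. Rnf43 had 24 and 62 reads in LT-HSC, against 256 and 331 in ST-HSC. The LT-HSC pair lay well under the ST-HSC pair, at 2.84 ± 1.42 CPM in LT-HSC, against 19.7 ± 3.74 CPM in ST-HSC (mean ± SD of 2 libraries), a ratio of means of 0.144. The log2 fold change was -2.47 ± 1.02 (SE, unadjusted p = 0.0585, adjusted p = 0.767).

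Most of the 25 listed cell cycle genes were placed the same way as Rnf43. The list had a summed level of 1809 and 1831 CPM in LT-HSC, against 3095 and 3934 CPM in ST-HSC, with a median log2 fold change of -1.45, 17 genes below both ST-HSC values and 0 above, beside 17.5% and 16.1% of all tested genes. At an unadjusted p under 0.05, 8 were lower in LT-HSC and 0 higher, beside 3.6% and 2.87%. Aurkb, a mitotic kinase gene, met the filter through ST-HSC alone, and without it 16 lay below and 7 were lower. Their part in the Rnf43 values was not tested. Znrf3 had 50 and 450 reads in LT-HSC, against 415 and 249 in ST-HSC. Only LT-HSC 1 was low for Znrf3, the groups overlapped, and the log2 fold change was -0.93 ± 1.17 (SE, adjusted p = 0.979).

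All 3 Dishevelled genes, whose products carry the signal from the receptor into the cell, were read in every library. Dvl1 had 1302 and 507 reads in LT-HSC, against 1761 and 2223 in ST-HSC. The LT-HSC pair lay under the ST-HSC pair, LT-HSC 1 closely so, at 65.5 ± 48.2 CPM in LT-HSC, against 133 ± 23.2 CPM in ST-HSC (mean ± SD of 2 libraries). For Dvl1 the log2 fold change was -1.23 ± 0.62 (SE, adjusted p = 0.815), and -0.41 without LT-HSC 2.

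Dvl2 had 1454 and 2675 reads in LT-HSC, against 1762 and 1837 in ST-HSC, and the groups overlapped (log2 fold change 0.17 ± 0.32 SE, adjusted p = 0.9998). Dvl3 had 87 and 192 reads in LT-HSC, against 309 and 88 in ST-HSC, and was the lowest of the 3 per kb of exon in each library. Dvl1 made up 55.7% and 20.8% of the summed Dishevelled level per kb in LT-HSC, against 55.5% and 63.3% in ST-HSC. The sum was 53.2 and 44.9 CPM per kb in LT-HSC, against 62.8 and 70.5 CPM per kb in ST-HSC.

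The destruction complex was read in all libraries except for Axin2. Apc, its large scaffold, had 1543 and 2476 reads in LT-HSC, against 1628 and 1600 in ST-HSC. In CPM the groups did not overlap, with Apc at 136 ± 24.9 CPM in LT-HSC, against 108 ± 0.266 CPM in ST-HSC (mean ± SD of 2 libraries), with a log2 fold change of 0.31 ± 0.30 (SE, adjusted p = 0.940), and 0.13 without LT-HSC 2. Csnk1a1, the kinase that primes beta-catenin, had nearly the same level in every library, at 528 ± 0.751 CPM in LT-HSC, against 534 ± 29.0 CPM in ST-HSC (mean ± SD of 2 libraries), a log2 fold change of -0.02 ± 0.15 (SE, adjusted p = 0.9998).

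The kinase genes Gsk3a and Gsk3b were placed in opposite ways, without a clear separation of the groups. Gsk3a had 159 and 750 reads in LT-HSC, against 540 and 697 in ST-HSC, with LT-HSC 1 alone below the rest in CPM (log2 fold change -0.75 ± 0.83 SE, adjusted p = 0.964). Gsk3b had 2264 and 1254 reads in LT-HSC, against 1187 and 1607 in ST-HSC, with LT-HSC 1 alone above the rest (log2 fold change 0.32 ± 0.49 SE, adjusted p = 0.998). Axin1, the limiting scaffold of the complex, had 776 and 65 reads in LT-HSC, against 117 and 398 in ST-HSC, a wider spread within each group than between them (log2 fold change 0.16 ± 1.49 SE, adjusted p = 0.9998). Axin2, the inducible Axin that serves as a common readout of beta-catenin activity, was unread in all 4 libraries.

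Ctnnb1, the beta-catenin gene, had the highest level per kb of exon of all members in each library. It had 5260 and 7675 reads in LT-HSC, against 5776 and 7648 in ST-HSC. In each group the second library was the higher, and the groups overlapped, at 439 ± 51.5 CPM in LT-HSC, against 450 ± 93.0 CPM in ST-HSC (mean ± SD of 2 libraries). The log2 fold change was -0.03 ± 0.22 (SE, adjusted p = 0.9998), and its sign turned with single libraries left out. Transcript levels say nothing of the amount or place of beta-catenin protein, which depends on its degradation.

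Among the TCF/LEF factors, which bring beta-catenin to DNA, Tcf7l2 was the main transcript. Tcf7l2 had 2488 and 5740 reads in LT-HSC, against 2287 and 2977 in ST-HSC. LT-HSC 2 was the highest library and LT-HSC 1 lay between the ST-HSC libraries, at 273 ± 117 CPM in LT-HSC, against 176 ± 34.4 CPM in ST-HSC (mean ± SD of 2 libraries). The log2 fold change of Tcf7l2 was 0.57 ± 0.38 (SE, adjusted p = 0.869), with 1.02 without LT-HSC 1 and 0.12 without LT-HSC 2. Per kb of exon it made up 81.9% and 88.3% of the TCF/LEF sum in LT-HSC, against 98.6% and 82.4% in ST-HSC.

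Tcf7l1, often a repressor of Wnt targets, had 347 and 530 reads in LT-HSC, against 0 and 443 in ST-HSC. Only ST-HSC 1 lacked it, and the log2 fold change of 2.46 ± 1.80 (SE, adjusted p = 0.884) was -0.02 without that library. Lef1 had 40 reads in LT-HSC 1 and none elsewhere, and Tcf7 had 19 reads in ST-HSC 1 and none elsewhere. Both are highly transcribed in lymphocytes and their progenitors, so lymphocyte markers were read beside them.

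Of 8 T cell markers, 4 had a read in each library. The list had a summed level of 41.0 and 149 CPM in LT-HSC, against 172 and 80.3 CPM in ST-HSC. Cd3e, Cd3d and Cd2 were unread in all libraries. Lck had 214 and 60 reads in LT-HSC, against 772 and 528 in ST-HSC. Cd4 stood at 0 and 6.25 CPM in LT-HSC, against 18.7 and 10.1 CPM in ST-HSC. Both were highest in ST-HSC 1, the library with Tcf7. Cd247 was highest in LT-HSC 2, with 294 and 2228 reads in LT-HSC, against 1527 and 510 in ST-HSC. Cd3g had 19 and 14 reads in LT-HSC and none in ST-HSC, and Cd8a had 9 reads or fewer in each library. Of 8 B cell markers, 5 and 2 had a read in LT-HSC, against 4 and 6 in ST-HSC, with a summed level of 231 and 149 CPM in LT-HSC, against 147 and 170 CPM in ST-HSC, and Pax5 was unread in all. Ebf1, a B lineage transcription factor gene, had 134 reads in LT-HSC 1, the library with Lef1, and none elsewhere. Both groups were sorted as CD48-, and Cd48 had 2 and 2 reads in LT-HSC, against 247 and 575 in ST-HSC. The part of lymphoid cells in the Lef1 and Tcf7 reads was not tested.

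**Figure D4:**
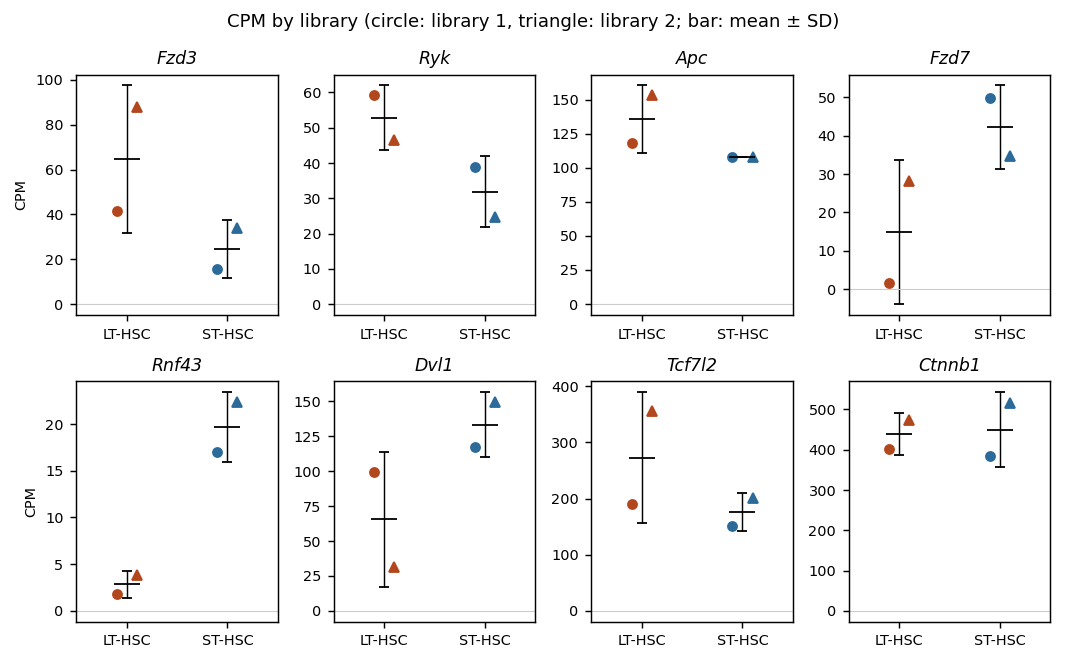
CPM by library for the 6 tested members whose groups do not overlap and for Tcf7l2 and Ctnnb1, with library 1 as a circle, library 2 as a triangle and a bar for the mean ± SD (n = 2). Fzd3, Ryk and Apc lie higher in both LT-HSC libraries, Fzd7, Rnf43 and Dvl1 lower, and of the 6 genes Rnf43 has the widest gap between the groups relative to its level.

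Genes outside the membership were read from 5 further pathway lists. Of 17 secreted or membrane-bound Wnt inhibitors, 10 had a read and 4 were tested. None passed at an adjusted p under 0.05. Of the 4, Sfrp2 and Kremen1 met the filter through LT-HSC alone, the group where they are high, so no count, median or test is read from them. Igfbp4, a binding protein that also blocks Wnt receptors, had a log2 fold change of -0.12 ± 0.28 and Sfrp1 of -0.46 ± 1.10 (SE), and the groups overlapped for both. Sfrp2, a secreted Frizzled-like protein that binds Wnt ligands, had 86 and 214 reads in LT-HSC, against 0 and 0 in ST-HSC. The LT-HSC mean was 49.4 times a floor of 3 reads in each ST-HSC library, and LT-HSC 1 alone 32.7 times. That floor covers counting error only. Of all genes with at least 20 reads in an ST-HSC library, 9.65% were unread in the other, so a higher ST-HSC level is not excluded. Kremen1, a receptor for the LRP inhibitor Dkk1, had 187 and 294 reads in LT-HSC, against 0 and 3 in ST-HSC.

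The endothelial and stromal markers were not placed 1 way beside Sfrp2. Col1a2, a collagen gene, had 508 and 111 reads in LT-HSC, against 0 and 1 in ST-HSC, and Cxcl12, a stromal chemokine gene, had 311 and 5 reads in LT-HSC, against 0 and 0 in ST-HSC. Pdgfrb, a pericyte gene, had 29 and 0 reads in LT-HSC, against 11 and 194 in ST-HSC, and Cdh5, an endothelial gene, 32 and 0 in LT-HSC, against 35 and 146 in ST-HSC. The part of stromal cells in the Sfrp2 values was not tested. The inhibitors Dkk2, Dkk3, Wif1, Frzb, Notum, Sostdc1 and Cer1 were unread in all libraries.

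Among 18 genes of R-spondins, their Lgr receptors, ligand secretion and ligand-specific cofactors, 10 were tested, none past the adjusted threshold. Tspan12, Gpc3 and Reck met the filter through 1 group alone and are given as reads only, and the other 7 had a median log2 fold change of 0.31, against -0.01 for all tested genes. The R-spondin genes Rspo1, Rspo2, Rspo3 and Rspo4, which encode ligands that block Rnf43 and Znrf3, were unread. Wls, the carrier of Wnt ligands to the surface, had 1372 and 2789 reads in LT-HSC, against 1124 and 1161 in ST-HSC, without overlap, and is a gene picked with its values known. Tspan12, a cofactor of the Norrin receptor Fzd4, had 314 and 232 reads in LT-HSC, against 0 and 14 in ST-HSC. Gpc3, a cell surface proteoglycan that binds Wnt ligands, had no read in LT-HSC, against 54 and 127 reads in ST-HSC. Reck, a membrane protein needed for Wnt7 signalling in mouse brain vessels, had 0 and 4 reads in LT-HSC, against 46 and 199 in ST-HSC.

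The 51 beta-catenin partners and regulators had a median log2 fold change of -0.02 over 42 tested genes, with 2 higher and 0 lower at an unadjusted p under 0.05, beside 2.87% and 3.6% of all tested genes. Csnk1g3, a membrane-bound casein kinase gene, stood at 60.1 ± 12.3 CPM in LT-HSC, against 19.9 ± 0.468 CPM in ST-HSC, and Tle2, a Groucho-type corepressor of TCF/LEF factors, at 211 ± 64.7 CPM in LT-HSC, against 100.7 ± 33.5 CPM in ST-HSC (mean ± SD of 2 libraries). Their log2 fold changes were 1.54 ± 0.56 and 1.07 ± 0.39 (SE, adjusted p = 0.763 and 0.767). The planar polarity and calcium list had a median of 0.04 over 35 tested genes. At an unadjusted p under 0.05, 1 was higher and 0 lower, beside the same 2.87% and 3.6%. That gene was Rock2, a kinase acting on the cytoskeleton, at a log2 fold change of 0.74 ± 0.25 (SE, adjusted p = 0.749).

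Wnt target genes showed no common direction. Of 38 listed, 6 of which are members, 27 had a read and 17 were tested. At an unadjusted p under 0.05, 1 was higher and 2 lower, beside 2.87% and 3.6% of all tested genes. The median log2 fold change was -0.07, against -0.01 for all tested genes. Twist1 met the filter through 1 group alone, and without it the median was -0.09. Mycn stood at 175 ± 55.5 CPM in LT-HSC, against 71.7 ± 1.46 CPM in ST-HSC (mean ± SD of 2 libraries), with a log2 fold change of 1.24 ± 0.35 (SE, adjusted p = 0.716). Cd44, an adhesion receptor gene, stood at 210 ± 84.8 CPM in LT-HSC, against 454 ± 103 CPM in ST-HSC (mean ± SD of 2 libraries), with a log2 fold change of -1.15 ± 0.36 (SE, adjusted p = 0.723). Birc5, also on the cell cycle list, had -1.51 ± 0.45 on the same scale (SE, adjusted p = 0.716). The targets used most often as reporters of the pathway, Axin2, Nkd1, Sp5 and Notum, were unread, and Lgr5 had 19 reads in LT-HSC 2 alone.

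**Figure D5:**
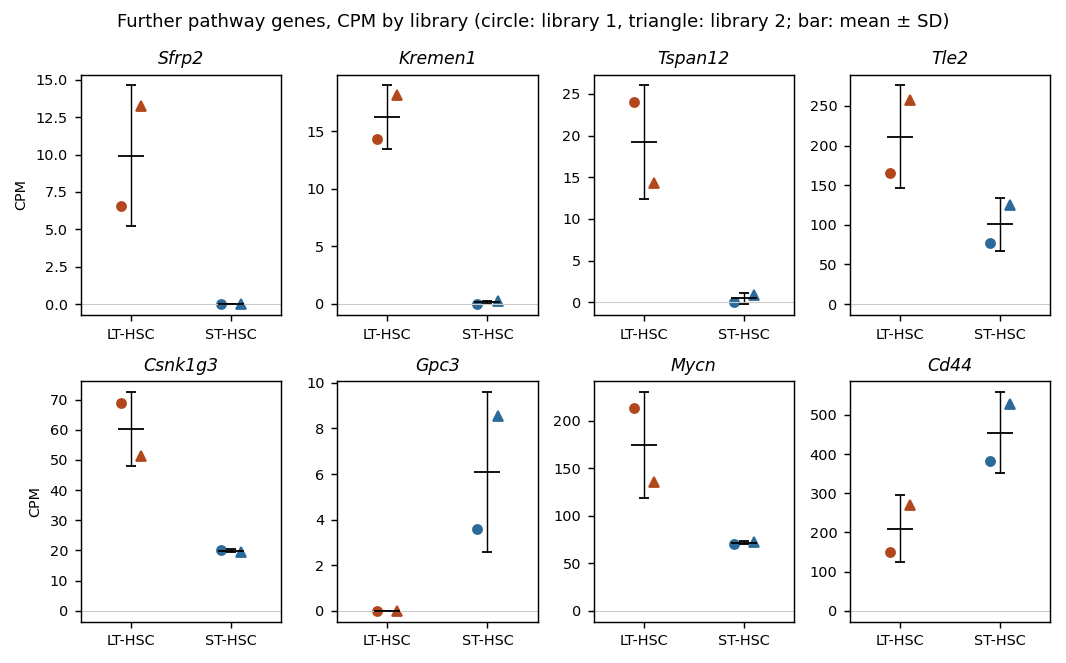
CPM by library for 8 genes of the further pathway lists, with library 1 as a circle, library 2 as a triangle and a bar for the mean ± SD (n = 2). Sfrp2, Kremen1 and Tspan12 are at or near 0 CPM in ST-HSC, Gpc3 is at 0 CPM in LT-HSC, and Cd44 is lower in both LT-HSC libraries.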

How the data were processed

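RNA of sorted bone marrow cells was amplified with the SMARTer kit, per the labels' protocols. No strand-specific step is stated, so reads of overlapping genes cannot be told apart. TopHat and the mm9 build are named in the submitters' processing notes, while counter and annotation are not given there or in any other source used here. The authors deposited a log2 value per gene and library, on a scale whose steps between low values match those of whole reads plus 1 over a library total. Reads recovered so were within 0.1 of a whole number for 100% of values up to 100 reads. The same steps would arise had unread genes been raised to 1 read, and read genes would then hold 1 read more. Rounding makes larger read numbers approximate.

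CPM are recovered reads scaled to the authors' library totals. The plan was a count test if the files held raw counts. Because log2 values were deposited, limma 3.58.1 (R 4.3.3, statmod 1.5.0) was applied to log2(CPM + 1) instead, using a variance trend and robust shrinkage. It was fitted over the 12569 genes that reached 1 CPM in 2 or more libraries, and p-values were Benjamini-Hochberg adjusted over all of them, with 0.05 as the limit. The added 1 CPM makes fold changes of low genes too small. The script was tested on simulated counts. Exon lengths are merged exons of protein-coding transcripts of the GENCODE M21 basic set, and promoter windows are RefSeq's. Floors cover counting error only.

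Named members are Ctnnb1, Axin2, Lef1, Tcf7, up to 2 tested genes per role class with the smallest p, those whose groups do not overlap and any read in 1 group alone, and from further pathway lists genes at an unadjusted p under 0.05. Members and lists were chosen with earlier results of these data known. Alternatives were other scaling, filters, pseudocount and tests, the deposited values, the replicate number as a block and leaving out each library.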

Additional observations from a re-analysis of the deposited data

How the results depend on the processing

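No gene and no member passed the adjusted threshold under any of the 13 alternatives to the limma fit. The smallest adjusted p of a named member in any of them was 0.552. Without 1 library, between 394 and 1099 genes and between 0 and 2 members had an unadjusted p under 0.05, between 6 and 9 tested members lay above and between 6 and 8 below the other group, and the members' median log2 fold change ran from -0.014 to 0.094. It was -0.010 with limma-voom. The genes numbered 517 without ST-HSC 1 and 394 without ST-HSC 2, and the members were Dvl1 without LT-HSC 1, Fzd7 and Lrp6 without LT-HSC 2, and Tcf7l1 without ST-HSC 2. The cause was not tested. A single library lies wholly above or below a pair more easily than 2 libraries do. The share of all tested genes so placed without 1 library was not computed. The larger numbers of members above and below are therefore not read as a change from the 3 and 3 of the main fit. Of 205 recomputed fold changes of the 16 named and tested members, 11 changed sign, in 9 genes, each with 1 library left out. The values without 1 library ran from -0.24 to 0.19 for Ctnnb1, -0.11 to 0.46 for Dvl2, -1.68 to 0.17 for Gsk3a, -1.12 to 3.08 for Lrp5, -2.42 to 0.45 for Lrp6, -0.017 to 4.93 for Tcf7l1, -0.67 to 1.79 for Wnt16, -1.75 to 1.08 for Wnt2b and -2.22 to 0.36 for Znrf3. Rnf43, Dvl1, Fzd3, Fzd7, Ryk, Apc and Tcf7l2 kept their sign in all 13. With the replicate block 876 genes had an unadjusted p under 0.05, against 814 without it. The numbers were not taken as pairs, since no label says that a number pairs libraries. Across tested genes, the deviations of libraries with the same number correlated at 0.05. Members with a read in a group numbered 22 to 28 with 1 of its libraries left out, 28 in each group after thinning to the smallest library, and 27 in each with at least 3 reads. The limit of 3 reads for an unread gene covers counting error only. Of all genes with at least 20 reads in a library of the group, 12.2% in LT-HSC and 9.65% in ST-HSC were unread in its partner. A higher level of an unread gene is therefore not excluded.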
